A study of Mus musculus with 25 samples.

Results

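MHC class I antigen presentation was described in mouse liver through 10 genes, taken by symbol from the gene tables of the series. They are the heavy chain genes H2-K1 and H2-D1, the light chain gene B2m, the peptide transporter genes Tap1 and Tap2, the loading factor gene Tapbp, the immunoproteasome genes Psmb8, Psmb9 and Psmb10, and the regulator gene Nlrc5. The tables held 30524 genes in all, and 24774 of these stood in the tables of all 5 groups. All 10 class I genes stood in every table, and all 10 passed the filter on low values. That filter asked 4 libraries or more to reach an FPKM of 1, and 12741 genes met it. FPKM, reads scaled by gene length and by the library's total, was computed here from the deposited values.

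Class I molecules show fragments of a cell's own proteins to CD8 T cells. The proteasome cuts proteins into peptides, and in its immunoproteasome form Psmb8, Psmb9 and Psmb10 take the places of Psmb5, Psmb6 and Psmb7. The transporter made of Tap1 and Tap2 carries peptides into the endoplasmic reticulum, where Tapbp (tapasin) holds the empty class I molecule beside the transporter until a peptide binds. A heavy chain such as H2-K1 or H2-D1, together with beta-2-microglobulin from B2m, then carries the peptide to the cell surface. Nlrc5 switches on transcription of some genes of this pathway, the heavy chain genes among them, and interferon gamma is their best known inducer. Hepatocytes hold little class I at rest and more during inflammation.

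All mice were C3H/HeJ males by their labels, 5 weeks old at the start, and the samples were livers. Untreated mice (n = 5) received saline. DEN mice (n = 6) received the liver carcinogen diethylnitrosamine at 25 mg/kg into the peritoneum 2 times a week, in 5 cycles of 3 weeks of injections and a week of rest. A month later, DEN_CAF mice (n = 5) also received caffeine at 50 mg/kg 3 times a week by gavage, and DEN_SOR mice (n = 4) the kinase inhibitor sorafenib at 30 mg/kg 2 times a week. DEN_CAF_SOR mice (n = 5) received both drugs, and the other mice the vehicles (corn oil with 2% DMSO for sorafenib), for 3 weeks. Every drug group thus also carried the carcinogen. The labels do not say whether a piece of liver held tumour.

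Libraries held 14750278 to 21992613 reads assigned to genes. As a check of the tissue label, the FPKM of 10 hepatocyte marker genes, Alb and Apoa1 among them, summed to between 26306 and 90468 in each library. Reads of Xist, which female cells transcribe from their silenced X, numbered 13370 to 29770 in Untreated 3, 4 and 5 and at most 21 in the other 22 libraries, although all animals were labelled male. Mitochondrial genes took 6.36% to 34.8% of the reads in the 10 libraries numbered 3 or 4 and 5.65% to 9.81% in the other 15. The main results are given below with and without these libraries where the call or the size changed. In bulk liver, more cells of a type and more RNA per cell cannot be told apart.

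The 10 genes lie on 3 chromosomes. On GRCm39, 6 of them stand within 300.4 kb of chromosome 17 (chr17:34134873-34435295): Tapbp, H2-K1, Psmb9, Tap1, Psmb8 and Tap2. H2-D1 lies on the same chromosome at chr17:35481706-35486475, B2m at chr2:121978167-121983564, Psmb10 at chr8:106662367-106665076 and Nlrc5 at chr8:95160984-95253900. Psmb9 (chr17:34400961-34406738, minus strand) and Tap1 (chr17:34406527-34416199, plus strand) run away from each other and overlap by 212 bases in the annotation of the tables, so some of their reads may not be separable. C3H mice carry the k haplotype of the H2 region and the reference genome the b haplotype. How that bears on the counts of H2-K1 and H2-D1 was not tested, and all 5 groups are of the same strain. Of the distinct stretches of 100 bases in their GENCODE M21 transcripts, H2-K1 shares 0.957% and H2-D1 3.59% with other genes, most often with H2-Q10 (H2-K1) and H2-Q1 (H2-D1). For B2m, Tap1, Tap2, Psmb8, Psmb9, Psmb10 and Nlrc5 the share was 0, and for Tapbp it was 0.0775%.

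The promoters of H2-K1 and H2-D1 are shown because for these 2 genes the most carcinogen-treated livers lay above every Untreated liver, and that of B2m because it encodes their shared partner. The sequences are RefSeq's for GRCm38.p6, and 8 of the 10 genes had an entry (all but Tap2 and Nlrc5). They are those of the reference genome, with the b haplotype of the H2 region. Whether the C3H mice, of the k haplotype, carry the same letters was not tested. The 250 bases before the start were searched on both strands for GGGATTCCC (a binding sequence of NF-kappa-B), TTTCNNTTC and TTCNNTTTC (parts of interferon response elements), TGACG (the core of sites bound by CREB and ATF) and CCAAT (the Y box, bound by NF-Y). Positions count back from the start, with -1 the base before it. In H2-K1 (the first of 2 listed windows, chr17:34000348-34000597, minus strand) the capitals mark, from left to right, GGGATTCCC, TTTCNNTTC, TGACG and the Y box read on the minus strand (ATTGG). In B2m (chr2:122147437-122147686, plus strand) they mark TTCNNTTTC on the minus strand (-139 to -131), TGACG and the Y box on the minus strand.
H2-K1: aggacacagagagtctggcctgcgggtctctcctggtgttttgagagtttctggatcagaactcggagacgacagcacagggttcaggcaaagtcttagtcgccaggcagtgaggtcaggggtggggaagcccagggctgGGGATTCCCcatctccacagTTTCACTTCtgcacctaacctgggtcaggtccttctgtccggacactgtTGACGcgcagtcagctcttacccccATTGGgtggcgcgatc
B2m: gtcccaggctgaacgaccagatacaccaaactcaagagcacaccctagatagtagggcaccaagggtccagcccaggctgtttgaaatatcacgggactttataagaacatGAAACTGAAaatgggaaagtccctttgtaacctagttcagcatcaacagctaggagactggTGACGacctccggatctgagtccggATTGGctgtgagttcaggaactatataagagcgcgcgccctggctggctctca

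In H2-K1 and H2-D1 the NF-kappa-B and interferon motifs stood the same distance apart, and 28 of the 29 bases from one to the other were identical. They span -110 to -82 in H2-K1 (chr17:34000429-34000457) and -170 to -142 in H2-D1 (chr17:35262924-35262952). The capitals are the motifs.
H2-K1: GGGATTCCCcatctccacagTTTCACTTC
H2-D1: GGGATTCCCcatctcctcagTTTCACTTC
This pair at this distance stood in 4 of 32851 promoter windows of the same length (0.0122%), 2 of which are those of H2-K1, which has overlapping entries. TGACG and the Y box stood 20 bases apart in 3 class I promoters, a pair found in 30 windows (0.0913%). Both distances searched for are those of the class I promoters shown, so these shares are a description and no test.
H2-K1: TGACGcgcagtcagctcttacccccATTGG
H2-D1: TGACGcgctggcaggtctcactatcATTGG
B2m: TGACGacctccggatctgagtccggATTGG
These stretches lie at chr17:34000359-34000388, chr17:35262993-35263022 and chr2:122147609-122147638. H2-K1 and H2-D1 matched at 23 of the 30 bases, and B2m matched H2-K1 at 13. Alone, the motifs are common or rare to different degrees: CCAAT stood in 33.8% of all windows, TGACG in 17.8%, TTCNNTTTC in 7.13%, TTTCNNTTC in 6.31% and GGGATTCCC in 0.301%. Among the 8 class I windows, CCAAT stood in 6, TGACG in 5 (H2-K1, H2-D1, B2m, Tap1 and Psmb9), TTTCNNTTC in 2 (H2-K1 and H2-D1), TTCNNTTTC in 1 (B2m) and GGGATTCCC in 2 (H2-K1 and H2-D1). The windows of Tap1 and Psmb9 overlap by 225 bases, so both read the same TGACG. A match is a description of letters and no evidence of binding.

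Levels per gene length differed widely between the 10 genes. B2m had a mean of 2098 FPKM over the 25 libraries, higher than 99.8% of the tested genes. H2-K1 followed at 231 FPKM and H2-D1 at 70.8 FPKM. Psmb10 (30.3 FPKM), Tapbp (25.9 FPKM), Psmb8 (19.7 FPKM) and Tap2 (11.2 FPKM) were in the middle, and Psmb9 (8.66 FPKM), Tap1 (6.03 FPKM) and Nlrc5 (5.56 FPKM) were lowest. Even so, every gene had at least 326 reads in every library, so counting error was small beside the spread between livers. Across libraries the highest value was 2.32 times the lowest for H2-K1 and 3.59 times the lowest for Tap1, the narrowest and widest of the 10.

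**Figure D1:**
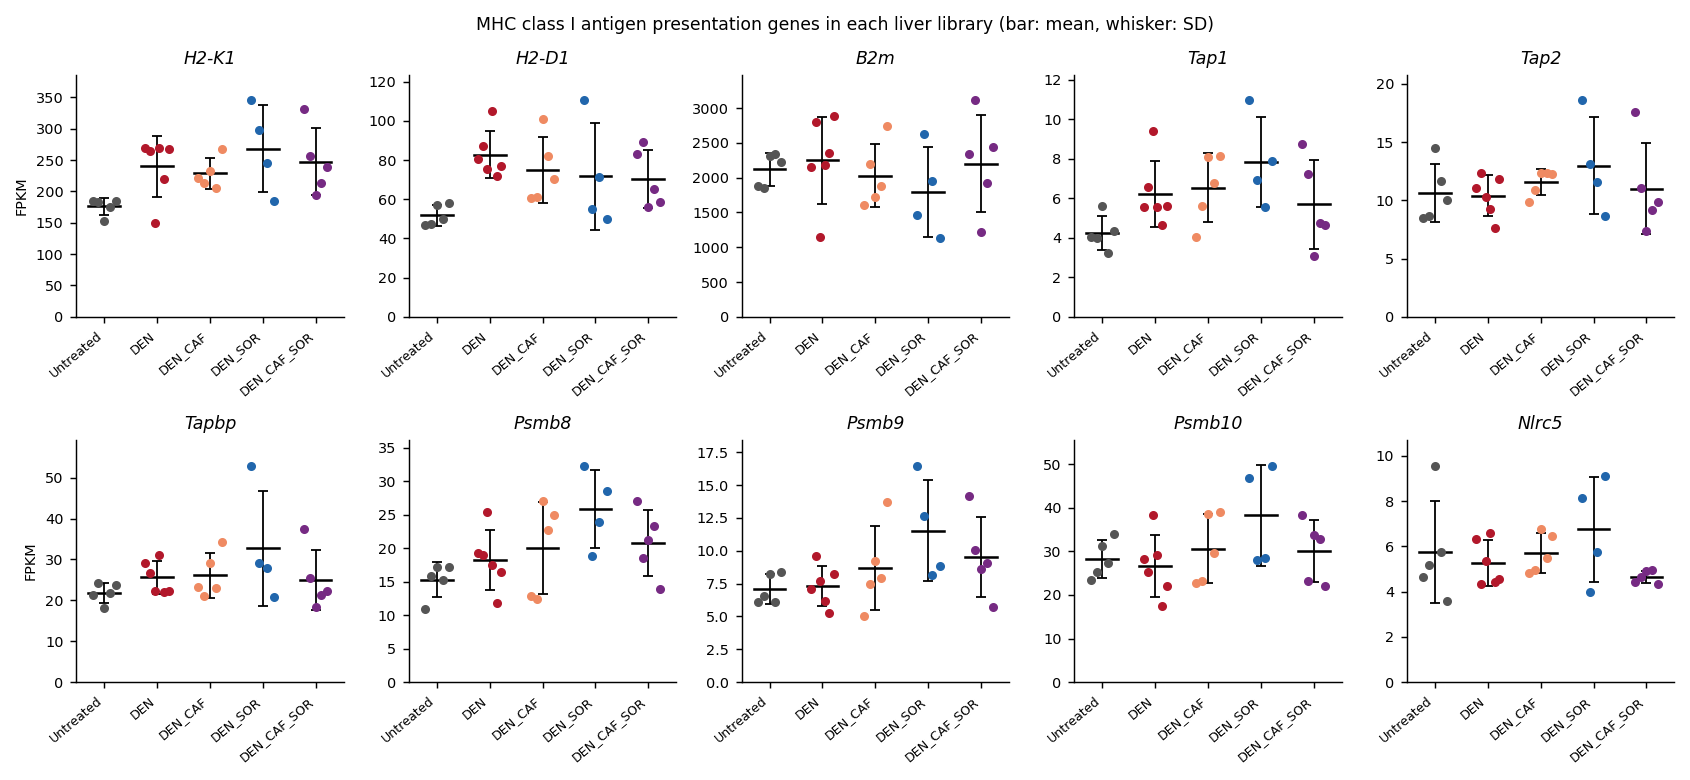
FPKM of each of the 10 genes (vertical axes, linear from 0, a scale per gene) in each library, by group (horizontal axes); points are livers, the bar is the group mean and the whisker the SD. H2-K1 and H2-D1 lie higher in most carcinogen-treated livers than in any Untreated liver. Each pair of groups overlaps for B2m, Tap1, Tap2, Tapbp, Psmb9, Psmb10 and Nlrc5. For Psmb8 all pairs but DEN_SOR and Untreated overlap.

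No class I gene was called different in any comparison of 2 groups (limma, Benjamini-Hochberg adjusted p of at most 0.05 over 12741 genes, 10 comparisons). A moderated F test over the 5 groups called 0 of the 10 genes, beside 0.95% of all tested genes, with adjusted p from 0.346 for H2-D1 to 0.961 for B2m. Unadjusted, H2-D1 and Tap1 had p under 0.05 in that test, as had 11.4% of all genes. edgeR called 0 of 10 there (2.17% of all genes) and DESeq2 0 of 10 (6.84%). The order of the group means can still be given as a description. DEN_SOR had the highest mean for 8 of the 10 genes and DEN for the other 2 (H2-D1 and B2m). Untreated had the lowest mean for 6 genes, DEN for Tap2 and Psmb10, DEN_SOR for B2m and DEN_CAF_SOR for Nlrc5. limma called no neighbours in these orders different. H2-K1 did not overlap between the neighbours DEN_CAF and Untreated, and for H2-D1 the interval between the neighbours DEN_CAF_SOR and Untreated, 0.01 to 0.81 on the log2 scale before adjustment, did not hold 0.

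In DEN against Untreated livers H2-D1 had the largest difference of the 10 genes, and it missed the threshold of limma. The 14 other tested class I heavy chain genes had a median log2 difference of 0.04, with 9 positive and 0 called by limma. H2-D1, which presents peptides as one of the classical class I heavy chains, read 47.1, 47.5, 57.3, 49.8 and 58.1 FPKM in Untreated livers 1 to 5. In DEN livers it had a lowest value of 72.1, a median of 78.8 and a highest value of 105 FPKM. Every DEN liver was therefore above every Untreated liver, which held for 2.6% of all tested genes in this direction. The means were 82.8 ± 11.96 (SD, n = 6) and 52.0 ± 5.36 FPKM (SD, n = 5), a log2 difference of 0.66 (SE 0.19, 95% interval 0.27 to 1.04) with adjusted p = 0.0629 by limma. H2-D1 was past the threshold on the recovered reads with edgeR (adjusted p = 0.0462) and DESeq2 (adjusted p = 0.0112). It was at 0.78 with adjusted p = 0.227 when the Untreated livers with Xist reads were left out, a comparison with 2 control livers.

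H2-K1, the other classical heavy chain gene of the tables, read 184, 183, 153, 175 and 185 FPKM in Untreated livers. DEN livers ran from 149 over a median of 266 to 270 FPKM. The low value belonged to DEN 3, the liver with 33.4% mitochondrial reads, and the other 5 DEN livers were above all Untreated ones. The log2 difference for H2-K1 was 0.42 (SE 0.18, 95% interval 0.05 to 0.79) with adjusted p = 0.239 by limma. With library totals taken without mitochondrial genes it was 0.48 with adjusted p = 0.0402, so the choice of total decides this call. Without the Untreated livers with Xist reads it was 0.35 (adjusted p = 0.600), and in libraries numbered 3 and 4 it was 0.29, against 0.46 in the others (adjusted p = 0.623 and 0.121).

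Tap1, the subunit of the peptide transporter encoded beside Psmb9, read 4.03, 3.96, 5.62, 3.24 and 4.34 FPKM in Untreated livers and 4.63 to 9.40 FPKM in DEN livers (median 5.59). The groups overlap through Untreated 3, and the highest DEN value again came from DEN 3. Its log2 difference was 0.45 (SE 0.21, 95% interval 0.02 to 0.88, adjusted p = 0.282), and 0.50 (adjusted p = 0.492) without the Untreated livers with Xist reads. Its partner Tap2 was at 10.7 ± 2.49 FPKM (SD, n = 5) in Untreated and 10.4 ± 1.74 FPKM (SD, n = 6) in DEN livers, with an interval of -0.41 to 0.36 around a log2 difference of -0.02. The FPKM ratio of Tap1 to Tap2 within a library was 0.279 to 0.474 in Untreated and 0.476 to 0.916 in DEN livers, so the groups did not overlap but nearly met.

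B2m, whose protein pairs with every heavy chain, read 1880, 1854, 2315, 2340.5 and 2228 FPKM in Untreated livers and 1143 to 2885 FPKM in DEN livers (median 2268). The DEN range enclosed the Untreated range, and the log2 difference was 0.03 with an interval of -0.50 to 0.56. Tapbp (0.22), Psmb8 (0.22), Psmb9 (0.04), Psmb10 (-0.10) and Nlrc5 (-0.06) had intervals that held 0 on the log2 scale. In this comparison 0 of 10 class I genes were called by limma, beside 2.04% of all genes, 1 by edgeR (4.69% of all) and 1 by DESeq2 (8.17% of all), and 3 (H2-K1, H2-D1 and Tap1) had an unadjusted p under 0.05, beside 16.5% of all genes. The median log2 difference was 0.13 over the 10 genes and 0.03 over all tested genes.

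**Figure D2:**
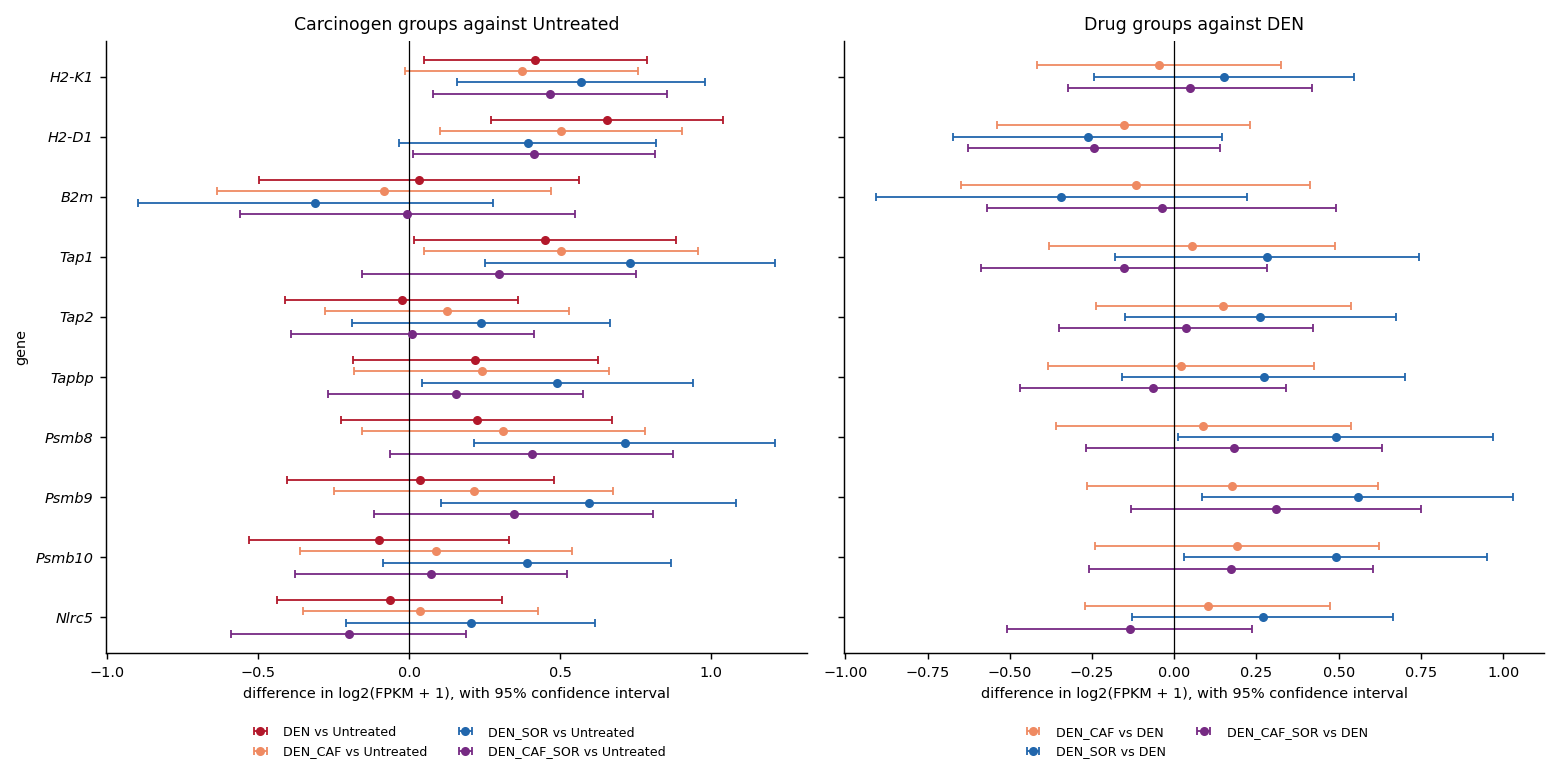
Differences in log2(FPKM + 1) for the 10 genes (vertical axis), with 95% confidence intervals from limma before adjustment, for the 4 carcinogen groups against Untreated (left) and the 3 drug groups against DEN (right). The intervals of H2-K1 and H2-D1 lie mostly right of 0 on the left panel, and on the right panel the intervals of Psmb8, Psmb9 and Psmb10 clear 0 for DEN_SOR only.

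The drug groups were also set against Untreated livers. These comparisons share their control livers with each other and with that of DEN, so their values are given side by side and their likeness is no further evidence. H2-K1 was 0.37 (SE 0.19, adjusted p = 0.429) higher in DEN_CAF, 0.57 (SE 0.20, adjusted p = 0.116) in DEN_SOR and 0.47 (SE 0.19, adjusted p = 0.335) in DEN_CAF_SOR on the log2 scale. DEN_CAF livers read 222, 214, 233, 206 and 268 FPKM, DEN_SOR livers 345, 298, 245 and 185 FPKM, and DEN_CAF_SOR livers 332, 257, 194, 214 and 240 FPKM. All of them were above the highest Untreated liver, DEN_SOR 4 by less than the rounding of these values. Of the 20 livers that had received carcinogen, 19 were above every Untreated liver for H2-K1, and DEN 3 was the exception.

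For H2-D1, 17 of these 20 livers were above every Untreated liver. DEN_CAF livers read 60.7, 61.2, 101.1, 81.9 and 70.6 FPKM, DEN_SOR livers 110.5, 54.8, 71.6 and 49.9 FPKM, and DEN_CAF_SOR livers 83.2, 89.1, 56.0, 65.3 and 58.6 FPKM. The exceptions were DEN_SOR 2, DEN_SOR 4 and DEN_CAF_SOR 3. The log2 differences from Untreated were 0.50 (adjusted p = 0.260), 0.39 (adjusted p = 0.308) and 0.41 (adjusted p = 0.418) in this order of groups. The value in DEN_SOR was 0.16 (adjusted p = 0.740) without DEN_SOR 1. In libraries numbered 3 and 4 the values were 0.76, 0.16 and 0.17, and in the others 0.33, 0.61 and 0.57. For Psmb8 15 of the 20 livers, for Tap1 12, for Tapbp and Psmb9 10 each, for B2m 7, for Psmb10 6, for Tap2 2 and for Nlrc5 0 lay above every Untreated liver.

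DEN_SOR stood farthest from Untreated. The median log2 difference over the 10 genes was 0.44, beside 0.00 over all tested genes, and 9 of 10 were positive. limma called 0 of 10 (2.62% of all genes), edgeR 0 (4.14% of all) and DESeq2 2 (Tap1 and H2-K1, with 9.38% of all genes called). H2-K1, Tap1, Tapbp, Psmb8 and Psmb9 had an unadjusted p under 0.05, as had 18.6% of all genes. H2-K1 and Psmb8 did not overlap between the groups, in the direction in which 4.29% of all genes did not. For DEN_CAF the median was 0.23 with 0 of 10 called (1.01% of all genes) and H2-K1 and H2-D1 not overlapping (4.12% of all genes). For DEN_CAF_SOR it was 0.23 with 0 of 10 called (0.494% of all genes) and H2-K1 not overlapping (3.12% of all genes). edgeR called 0 of 10 in DEN_CAF (1.71% of all genes) and in DEN_CAF_SOR (1.3%), and DESeq2 0 of 10 in DEN_CAF (3.62%) and in DEN_CAF_SOR (3.1%). Unadjusted, 2 genes had p under 0.05 in each: H2-D1 and Tap1 in DEN_CAF (12.3% of all genes), H2-K1 and H2-D1 in DEN_CAF_SOR (11.5% of all genes).

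Tap1 had the largest log2 difference of the 10 genes in DEN_SOR against Untreated, 0.73 (SE 0.23, 95% interval 0.25 to 1.21, adjusted p = 0.0878). The 4 DEN_SOR livers read 10.9, 6.91, 5.55 and 7.89 FPKM, and 3 of them were above all Untreated livers. Psmb8, the subunit that replaces Psmb5, read 10.9, 15.8, 17.2, 15.3 and 17.3 FPKM in Untreated livers. In DEN_SOR livers it read 32.3, 18.8, 23.9 and 28.6 FPKM, all above Untreated, a log2 difference of 0.71 (SE 0.24, 95% interval 0.22 to 1.21, adjusted p = 0.105). Leaving out DEN_SOR 4, the liver with 34.8% mitochondrial reads, brought H2-K1 to 0.74 with adjusted p = 0.0444. Over leaving out any 1 library its adjusted p ran from 0.0444 to 0.340. Without the Untreated livers with Xist reads the log2 differences were 0.50 for H2-K1, 0.79 for Tap1 and 0.90 for Psmb8, with adjusted p of 0.459, 0.299 and 0.255.

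Among livers that all had received carcinogen, the largest differences with sorafenib alone were in the immunoproteasome genes, short of the threshold. In DEN_SOR against DEN livers Psmb9 was 0.56 higher on the log2 scale (SE 0.23, adjusted p = 0.771), Psmb8 0.49 (SE 0.23, adjusted p = 0.796) and Psmb10 0.49 (SE 0.22, adjusted p = 0.789). The 95% intervals before adjustment were 0.09 to 1.03, 0.01 to 0.97 and 0.03 to 0.95. In libraries numbered 3 and 4 the differences were 0.27 for Psmb9, 0.29 for Psmb8 and 0.16 for Psmb10, and in the others 0.88, 0.57 and 0.64, with adjusted p from 0.413 to 0.941. These were the 3 of 10 genes with an unadjusted p under 0.05, beside 6.19% of all genes. limma called 0 of 10, edgeR 0 and DESeq2 0, where limma and edgeR called 0% of all genes and DESeq2 0.243%.

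Psmb9, which replaces Psmb6, ran from 5.28 to 9.61 FPKM in DEN livers with a median of 7.38. It read 16.5, 12.6, 8.16 and 8.82 FPKM in DEN_SOR livers, of which the first 2 were above all DEN livers. Psmb10, which replaces Psmb7, ran from 17.6 to 38.4 FPKM in DEN (median 26.7) and read 46.8, 28.1, 28.4 and 49.7 FPKM in DEN_SOR. Psmb8 in DEN ran from 11.8 to 25.5 FPKM (median 18.2). The groups overlapped for all 3 genes. B2m was at -0.34 (interval -0.91 to 0.22, adjusted p = 0.912) with 1465, 2622, 1946 and 1125 FPKM in the DEN_SOR livers, and H2-D1 was at -0.26. For B2m the difference was -0.55 without DEN_SOR 2, -0.53 without DEN 3 and -0.14 without DEN_SOR 4. In all, 8 of 10 genes were positive and B2m and H2-D1 negative.

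The constitutive subunits give a scale within each library. Psmb8 over Psmb5 averaged 0.331 ± 0.0768 (SD, n = 5) in Untreated, 0.351 ± 0.102 (SD, n = 6) in DEN and 0.510 ± 0.0711 (SD, n = 4) in DEN_SOR livers. The DEN_SOR ratios were 0.545, 0.508, 0.412 and 0.577, and the Untreated ratios 0.224, 0.441, 0.335, 0.325 and 0.328, so only the 0.412 of DEN_SOR 3 lay within the Untreated range. Psmb9 over Psmb6 averaged 0.0906 in Untreated, 0.0969 in DEN and 0.152 in DEN_SOR. Psmb10 over Psmb7 averaged 0.762, 1.00 and 1.59 in the same order, with 2.97 in DEN_SOR 4 and 2.48 in DEN 3, the 2 livers with the largest mitochondrial shares. These ratios are descriptions and were not tested. Of 14 genes of the constitutive core proteasome, 0 were called in either direction in any comparison.

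**Figure D3:**
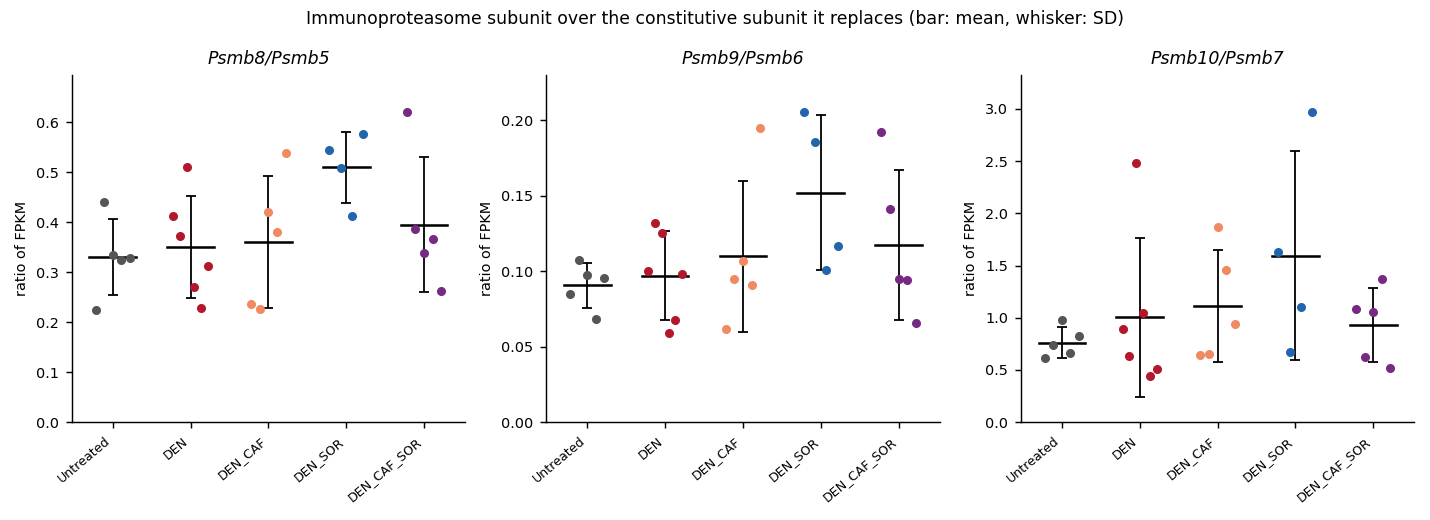
FPKM of each immunoproteasome subunit divided by that of the constitutive subunit it replaces (vertical axes, linear from 0), per library and group (horizontal axes), with group mean (bar) and SD (whisker). DEN_SOR has the highest group mean in each panel, 0.510, 0.152 and 1.59, and its livers overlap with those of the other groups.

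For caffeine alone the differences in class I genes were within the spread between livers. In DEN_CAF against DEN livers the largest log2 difference among the 10 genes was 0.19 for Psmb10 (SE 0.21, 95% interval -0.24 to 0.62, adjusted p above 0.99), and the median was 0.07. Psmb10 read 22.8, 23.2, 38.5, 29.6 and 39.0 FPKM in the DEN_CAF livers, and its difference lay between 0.08 (without DEN 5) and 0.30 (without DEN 3) when a library was left out. limma, edgeR and DESeq2 each called 0 of the 10 genes, 0 had an unadjusted p under 0.05. Of all genes, limma and edgeR each called 0.00785% and DESeq2 0.0785%. Across the 10 genes the 95% intervals reached from -0.65 (B2m) to 0.62 (Psmb10), so differences of that size cannot be told from none with these livers.

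Both drugs together gave values between those of DEN and DEN_SOR for the immunoproteasome. Against DEN, Psmb9 was at 0.31 (SE 0.21, interval -0.13 to 0.75), the largest of the 10, and read 14.2, 10.1, 8.64, 9.10 and 5.71 FPKM. Without DEN_CAF_SOR 1 it was 0.17. The median over the 10 genes was -0.00, with 5 positive and 5 negative, and 0 were called by limma, edgeR and DESeq2 (0% of all genes each), with 0 at an unadjusted p under 0.05. Against DEN_SOR, 8 of 10 genes were lower, with Tap1 at -0.43 (SE 0.23, interval -0.92 to 0.05) and Nlrc5 at -0.40 (SE 0.20, interval -0.82 to 0.01). Tap1 read 8.75, 7.22, 3.05, 4.74 and 4.65 FPKM in DEN_CAF_SOR livers, overlapping with DEN_SOR. Nlrc5 was narrow there, 4.35 to 4.94 FPKM, and read 8.14, 3.99, 5.73 and 9.13 FPKM in DEN_SOR. Tap1 was at -0.27 without DEN_CAF_SOR 3 and -0.28 without DEN_SOR 1, and Nlrc5 at -0.26 without DEN_SOR 4. limma and edgeR called 0 of 10 genes here (0% of all genes), DESeq2 0 (0.00785% of all), and 0 had an unadjusted p under 0.05.

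The remaining pairs gave no call either. DEN_CAF_SOR against DEN_CAF had its largest difference in Nlrc5 (-0.24, SE 0.19), and DEN_CAF against DEN_SOR in Psmb8 (-0.40, SE 0.24, and -0.26 without DEN_CAF 2). In each, limma, edgeR and DESeq2 called 0 of 10 genes and 0 had an unadjusted p under 0.05; of all genes the 3 tools called 0%, apart from 0.00785% by DESeq2 in the first pair. Whether caffeine altered the effect of sorafenib was tested as an interaction. It was -0.51 on the log2 scale for Psmb10 (SE 0.31, interval -1.15 to 0.13) and -0.50 for Nlrc5 (SE 0.27, interval -1.06 to 0.05), with 8 of 10 genes negative and adjusted p from 0.992 to 0.995. limma called 0 of 10 genes (0% of all), edgeR 0 (0% of all) and DESeq2 0 (0.0864% of all) in the interaction, and 0 had an unadjusted p under 0.05.

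Within groups, some livers were highest or lowest for many of the 10 genes at once. DEN_SOR 1 had the highest value of its group for 7 of the 10 genes (all but B2m, Psmb10 and Nlrc5), with Tapbp at 52.9 FPKM against 29.1, 27.9 and 20.9 FPKM in the other DEN_SOR livers. DEN_CAF_SOR 1 was likewise highest for 7 genes and DEN_CAF 5 for 6. DEN 5 and DEN_CAF 1 were each lowest of their group for 7 genes. Averaged over the 10 genes after centring each on its own mean, the log2(FPKM + 1) level lay between -0.36 and -0.01 in Untreated livers, -0.28 and 0.11 in DEN livers, -0.28 and 0.34 in DEN_CAF, 0.03 and 0.62 in DEN_SOR, and -0.27 and 0.41 in DEN_CAF_SOR. All 4 DEN_SOR livers were therefore above all Untreated livers on this average, and the other groups overlapped with Untreated. The gap was narrow, with a lowest DEN_SOR value of 0.028 and a highest Untreated value of -0.009. How often averages of 10 other genes part these groups was not computed.

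**Figure D4:**
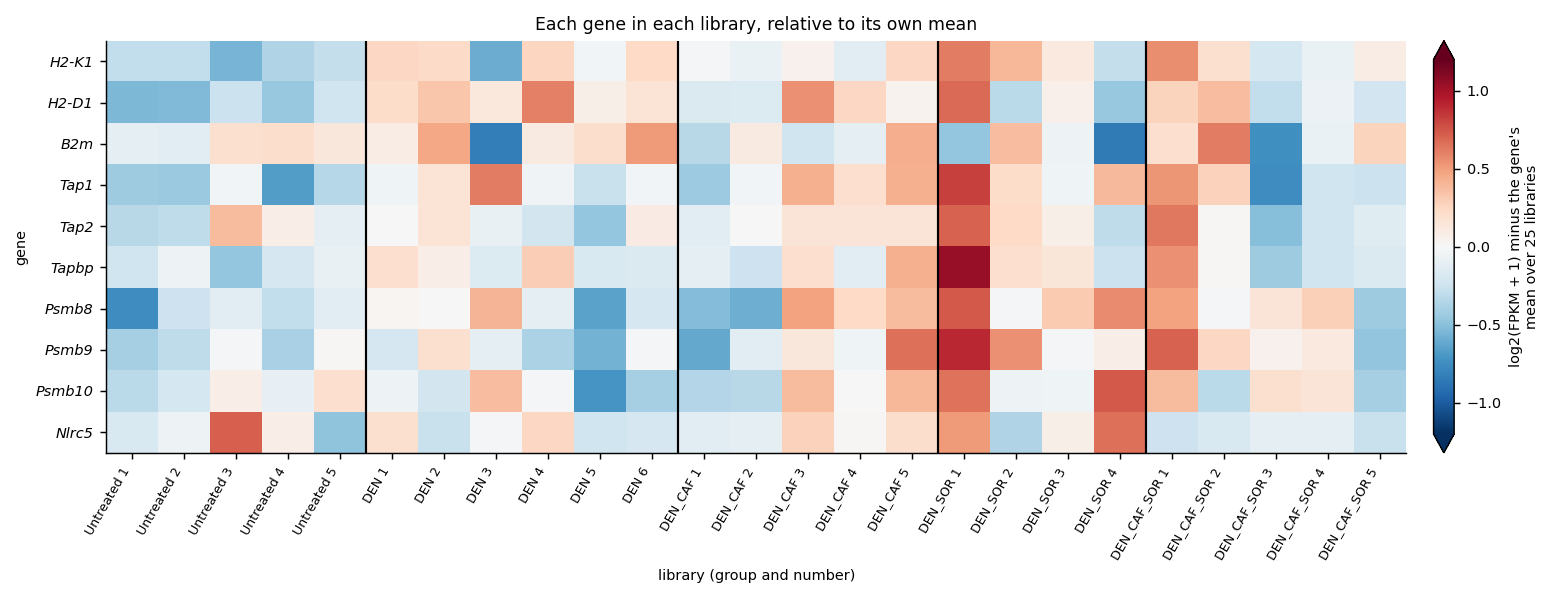
Each gene (rows) in each of the 25 libraries (columns, by group), coloured by log2(FPKM + 1) minus the gene's mean over all libraries; black lines part the groups. DEN_SOR 1 and DEN_CAF_SOR 1 are high for most genes, and B2m has its group's lowest value in DEN 3, DEN_SOR 4 and DEN_CAF_SOR 3.

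The mitochondrial share moved with some of these values. In the 8 libraries with more than 10% mitochondrial reads B2m had a median of 1801 FPKM, against 2337 FPKM in the other 17. H2-K1 had medians of 200.1 and 257 FPKM. Psmb8 and Psmb10 went the other way, with medians of 23.7 and 33.3 FPKM in the 8 libraries and 17.3 and 25.2 FPKM in the 17. With totals that leave out mitochondrial genes the medians of B2m were 2253 and 2477 FPKM and those of H2-K1 265 and 280 FPKM. On that scale the medians of Psmb8 were 29.1 and 18.9 FPKM and those of Psmb10 40.3 and 27.1 FPKM. The part of the mitochondrial share in the differences between groups was not tested. In libraries not numbered 3 or 4 the log2 difference from Untreated in DEN_SOR was 0.80 for H2-K1 (adjusted p = 0.0297) and 0.74 for Psmb8 (adjusted p = 0.241), and in those numbered 3 and 4 it was 0.38 and 0.66 (adjusted p = 0.600 and 0.245). For H2-D1 in DEN the values were 0.63 and 0.72 (adjusted p = 0.148 and 0.173).

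Around the 10 genes, 7 further lists covered other class I heavy chains, peptide loading and trimming, the constitutive proteasome, its activators, class I transcription factors, the interferon gamma pathway and class II genes. They name 103 genes, of which 99 were found among the genes of any table and 88 were tested. In 10 of 11 comparisons of groups, the interaction included, limma called 0 of the 88 genes. In DEN_SOR against Untreated, 1 of 16 tested genes of the interferon gamma list and 1 of 14 of the list of other class I heavy chains were higher and 0 lower, beside 2.62% of all genes called.

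Tgtp1, an interferon-induced GTPase with a near-identical copy that may share its reads, went from 0.566 ± 0.235 FPKM (SD, n = 5) in Untreated to 4.14 ± 2.37 FPKM (SD, n = 4) in DEN_SOR (log2 1.61, SE 0.32, adjusted p = 0.00687). H2-M2, a non-classical class I gene, went from 0.0395 ± 0.0563 to 1.41 ± 1.26 FPKM (log2 1.10 on the log2(FPKM + 1) scale, SE 0.30, adjusted p = 0.0496). The highest Untreated values were 0.761 FPKM for Tgtp1 and 0.121 FPKM for H2-M2, below the filter's FPKM of 1. Both genes thus entered the test only through carcinogen-treated livers, where they are high, and their calls are given as a description. Without the Untreated livers with Xist reads adjusted p was 0.107 for Tgtp1 and 0.277 for H2-M2. The call of H2-M2 was lost in 18 of the 25 fits without a library (adjusted p up to 0.177), and that of Tgtp1 in none of the 25 (adjusted p up to 0.0490).

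Other inducers and partners of class I did not pass the test. Irf1, a transcription factor that interferon gamma induces, was at 14.9 ± 7.08 FPKM (SD, n = 5) in Untreated and 11.99 ± 1.95 FPKM (SD, n = 4) in DEN_SOR livers. Ifng itself was at most 0.199 FPKM in any library and did not enter the test. Calr, the calreticulin of the loading complex, stood at 150.7 ± 31.2 FPKM in Untreated and 184 ± 76.2 FPKM in DEN livers, and the proteasome activator gene Psme1 at 44.9 ± 3.53 and 52.7 ± 6.50 FPKM. H2-Q10, a secreted class I molecule of the liver, had a mean of 597 FPKM in Untreated and 607 FPKM in DEN livers, above H2-K1. Among 5 tested class II genes, which present peptides in professional antigen-presenting cells, 0 were called; their median log2 difference was 0.84 in DEN and 1.17 in DEN_SOR against Untreated, with the largest values at 1.083 for H2-Eb1 in DEN (adjusted p = 0.164) and 1.36 for H2-Aa in DEN_SOR (adjusted p = 0.0598).

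Marker genes of other cells that a liver sample can hold are given beside these values. In 8 lists of markers, 50 of 76 genes were tested, and the only call was Stab2, a scavenger receptor of liver sinusoidal endothelium. Stab2 was lower in DEN_SOR than in Untreated (log2 -0.94, SE 0.24, adjusted p = 0.0378). Of all genes, limma called 2.62% in this comparison. Among the 9 endothelial markers 1 was positive there, with a median log2 difference of -0.55 and a lowest of -1.11. Only 3 of 13 CD8 T and NK, 1 of 9 dendritic and 2 of 7 B and plasma cell markers entered the test. The lack of calls therefore says little about these cells. The summed FPKM of 13 CD8 T and NK cell markers was 1.74 to 7.35 in Untreated, 2.47 to 6.21 in DEN, 2.48 to 9.74 in DEN_CAF, 2.19 to 8.62 in DEN_SOR and 1.84 to 10.5 in DEN_CAF_SOR, with Cd8a at most 0.930 FPKM in any library. For 8 leukocyte markers the sums were 8.77 to 23.9, 10.9 to 64.9, 11.8 to 38.6, 11.7 to 30.9 and 11.6 to 46.5 in the same order. For 11 Kupffer cell and macrophage markers they were 103 to 231, 105 to 211, 76.8 to 295, 95.04 to 219 and 109 to 389. The top value came from DEN_CAF_SOR 1 in the last group for all 3 lists, from DEN_CAF 5 in DEN_CAF, and in DEN_SOR from DEN_SOR 1 for the macrophage list and DEN_SOR 3 for the other 2. In DEN it came from DEN 3 for CD8 T and NK cells, DEN 4 for leukocytes and DEN 2 for macrophages. DEN_CAF_SOR 1, DEN_CAF 5 and DEN_SOR 1 also had the most class I genes at their group's highest value, as had DEN 4 in DEN, while DEN_SOR 3 had 0. For 9 dendritic cell markers the sums were 1.96 to 4.87 in Untreated and 2.02 to 6.32 in DEN_SOR, and for 7 B and plasma cell markers 2.92 to 9.41 and 3.13 to 15.9. For 9 neutrophil and monocyte markers they were 29.0 to 59.4 in Untreated, 29.8 to 469 in DEN (the top in DEN 4) and 29.9 to 64.9 in DEN_SOR, and for 9 endothelial markers 35.5 to 80.8 in Untreated and 16.7 to 55.1 in DEN_SOR. No marker of these lists was at 0 in every library of a group. The part of other cell types in the class I values was not tested.

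The genes whose level went most like the mean of the 10 class I genes were Zbp1 (Pearson r = 0.874), Vps37d (0.853), H2-T22 (0.827), Gbp9 (0.827) and Ubd (0.819), chosen as the 5 highest of all other tested genes over the 25 libraries. These libraries share groups, depth and mitochondrial share, and the values are given as a description. Zbp1, a sensor of Z-form nucleic acid, ran from 1.53 to 15.6 FPKM. Ubd, a ubiquitin-like protein induced by inflammatory cytokines, ran from 0.261 to 26.5 FPKM. Vps37d ran from 0.247 to 1.87 FPKM, near the filter's FPKM of 1. H2-T22 ran from 32.2 to 85.6 FPKM and Gbp9 from 2.86 to 15.9 FPKM. Zbp1, Vps37d, H2-T22 and Ubd had their highest value in DEN_SOR 1 and Gbp9, an interferon-induced GTPase, in DEN_CAF 5.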

How the data were processed

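RNA of 25 mouse livers was sequenced from SMARTer libraries, per the labels' protocols. The submitters' processing notes name HISAT2 2.0.5, featureCounts 1.5.0-p3 and GRCm39. For the annotation release and strand setting, nothing is given in the sources used here. Each group has its own table. Despite their FPKM name, each deposited column is a signal: whole reads divided by 1 size factor per library, set separately per table. All values (100%) were whole reads within 0.01 read, so reads were recovered, and FPKM was computed from reads, library total and listed gene length.

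Genes with FPKM of at least 1 in at least 4 libraries were tested with limma 3.58.1 (R 4.3.3) on log2(FPKM + 1): 1 fit of 25 libraries, 20 residual degrees of freedom, trended eBayes, two-sided, Benjamini-Hochberg adjustment over 12741 genes, threshold 0.05. Fold changes on this scale understate those of low genes. edgeR 4.0.16 (quasi-likelihood) and DESeq2 1.42.0 ran on the recovered reads. The steps were tested on simulated data. Adjusted p-values without another name are limma's, and ± is the SD between livers. No 2 libraries of a group were repeats (chi-square per degree of freedom 17.1 to 382 over 51 pairs).

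The class I genes and lists were chosen with earlier results of these data known. All 10 are named. Per comparison, the text gives log2 differences for called genes or, with none called, the largest, and adds others chosen after their values were seen. Per further list it names the 2 largest called genes or the largest. H2-Q6, H2-Q7, H2-Q8 and H2-T27 are not analysed here, and 1 result of the further lists is not reported here. P-values set differences between group means against the spread between these samples.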

Additional observations from a re-analysis of the deposited data

How the results depend on the processing

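Of 40 alternative settings, none turned the direction of any of the 29 log2 differences examined, and 1107 of their 1159 alternative values kept their side of the threshold (13 moved past it, 39 fell short). Counts of called class I genes kept their value in 468 of 479 cases. For DEN against Untreated the count of 0 became 2 with library totals without mitochondrial genes (H2-K1 and H2-D1), and 1 (H2-D1) with edgeR, with DESeq2 and with libraries numbered 3 and 4 as a batch term. It ran from 0 to 1 when a library was left out, with 1 without DEN_SOR 1 or DEN_SOR 4, which enter only through the shared spread. For DEN_SOR against Untreated it became 1 (H2-K1) with totals without mitochondrial genes, 2 (H2-K1 and Tap1) with DESeq2, 1 (H2-K1) with the batch term and 1 (H2-K1) in libraries not numbered 3 or 4, a setting chosen after seeing the data. It ran from 0 to 1 when a library was left out, with 1 without DEN_SOR 4. In the other comparisons it stayed at 0. The cause was not tested.

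Same-numbered libraries of different groups tended to deviate from their group means alike. Of 46 such pairs, 25 correlated above 0.1 (-0.28 to 0.54, median 0.134), and the median over 203 other pairs was -0.0264. Of the 25 libraries, 8 correlated best with a library of their own number. What the numbers stand for was not tested. With a replicate block, 0 class I genes were called in every comparison, as without it. Each of the 10 genes had at least 326 reads in every library.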
